A study of Mus musculus with 6 samples.

Results

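The subject here is a set of 40 mouse genes of the cell cycle and DNA replication, chosen by name from 5 steps of the cycle: 4 G1/S regulators, 10 replication licensing genes, 8 DNA synthesis genes, 9 genes of G2 and entry into mitosis, and 9 genes of mitosis itself. Every probe that the platform annotation assigns to 1 of these genes was taken, and the brightest probe tested stood for its gene. Of the 40 genes, 37 had a probe and 36 entered the test, among 15012 genes tested in all. Mcm7, Tyms and Ccnb1 had no listed probe and are not analysed here. The single listed probe of Rrm1, the large subunit of ribonucleotide reductase, was below background on all 6 arrays.

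Expression was measured in embryonic day 11.5 mouse hearts on 6 single-colour CodeLink arrays, 3 with RNA of Dicer mutant hearts and 3 with RNA of control hearts. In the mutants the Dicer gene was inactivated by a Cre recombinase knocked into the Nkx2.5 locus, which is active in cardiac progenitors, so that heart cells outside that lineage keep the gene. The sources used here give neither the genotype of the controls, nor whether they carry the Cre, nor whether each array held 1 heart or a pool. The spread behind each p-value is that between these RNA samples and may be technical.

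The cell cycle is driven by cyclins, which switch on cyclin-dependent kinases, and its genes are transcribed in waves. E2F factors turn on the genes for DNA replication before S phase, and a later wave, driven through the CHR promoter element, the CCAAT box and the factor FoxM1, turns on the genes for mitosis. At midgestation the heart grows by division of its muscle cells, and Dicer makes the miRNAs, short RNAs that lower the level of many transcripts, cell cycle genes among them.

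No member passed the test between mutant and control hearts. At a Benjamini-Hochberg adjusted p under 0.05 over all 17727 probes, limma called 0 of 36 members, against a background of 0.0600% of all genes (9 of 15012, 0.0333% higher and 0.0266% lower) and 0.0508% of all probes. By brightest probe, as in every count of members here, the smallest adjusted p of a member was 0.38, for Ccna2. The dimmer probe of Aurka, described below, had a limma adjusted p of 0.221. At an unadjusted p under 0.05 there were 3 members, Ccna2, Cdk1 and Top2a, all with a higher mean in the mutant. That is 8.33% of the members, against 10.2% of all genes, 6.71% higher and 3.47% lower. The 3 mutant arrays lay wholly above the 3 controls in 4 members, Ccna2, Cdk1, Cdt1 and Pola1 (9.73% of all genes), and wholly below in 1, Bub1b (5.50% of all genes). Together these are 13.9% of the members, against 15.2% of all genes, so the members stood near the background in both counts.

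In the fit used here the differences were small and most of their intervals narrow. The median log2 difference, mutant minus control, was 0.08 over the 36 members, against 0.01 over all genes, and 24 members lay above 0 and 12 below (52.4% of all genes lay above 0). Differences ran from -0.58 for E2f2 to 0.44 for Top2a. For 35 of the 36 members the 95% interval of the difference lay within a 2-fold change in either direction, as it did for 90.5% of all genes. E2f2 was the exception. Within a 1.5-fold change lay the intervals of 29 members (80.6%), against 66.8% of all genes. These intervals are not adjusted for the number of genes.

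**Figure D1:**
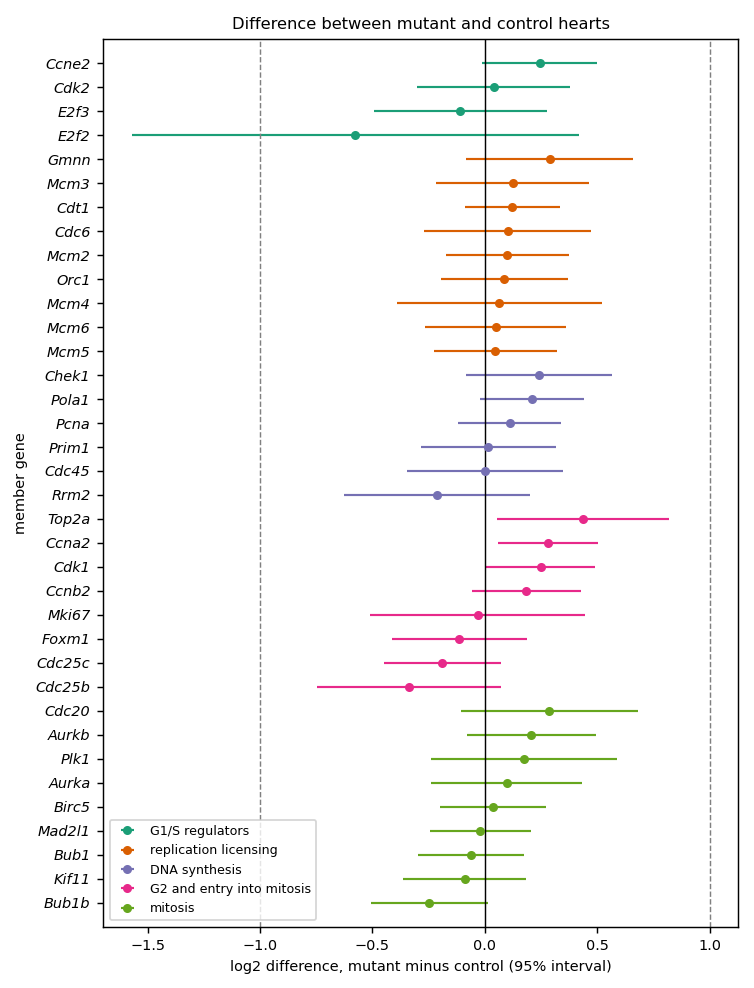
Log2 difference between Dicer mutant and control hearts for the 36 members tested, by phase group; points are differences of means (3 arrays each, for Aurka 3 against 2), bars the 95% interval from limma, and dashed lines a 2-fold change. The interval of E2f2 alone crosses a dashed line, and those of Top2a, Ccna2 and Cdk1 do not reach 0.

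**Figure D2:**
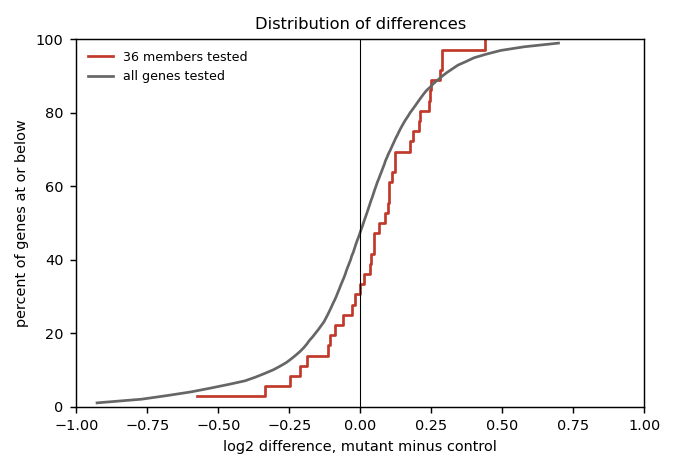
Percent of genes (vertical axis) whose log2 difference, mutant minus control, is at or below the value on the horizontal axis, for the 36 members (red steps) and all 15012 genes tested (grey). The member curve crosses the middle at 0.08 and that of all genes at 0.01.

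The array medians of the members overlapped between the groups. With each gene centred on its mean over the 6 arrays, the median over the 35 members measured on every array was 0.07, 0.05 and 0.01 in mutants 1, 2 and 3, against -0.11 and -0.09 in controls 1 and 2 and 0.06 in control 3. Control 3 thus stood with the mutants, and the groups overlapped. It held the highest value of 12 of the 35 members and the lowest of 1, whereas control 2 held the highest of none and the lowest of 12. Of the 14990 genes measured on every array, control 3 held the highest value of 3162 and the lowest of 2462. Control 2 held the highest of 1081 and the lowest of 1770. Over all genes the array medians stayed between -0.03 and 0.02.

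**Figure D3:**
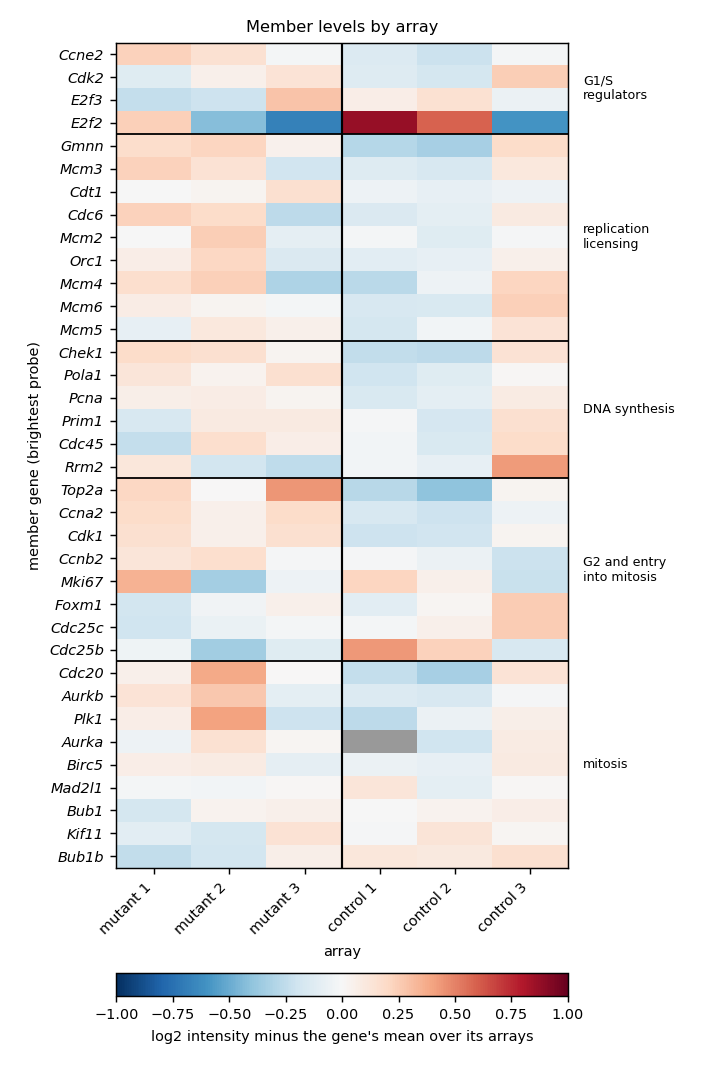
Log2 intensity of the 36 members on the 3 mutant and 3 control arrays, each gene minus its mean over its arrays (colour scale from -1 to 1), grouped by phase and ordered by difference. Controls 1 and 2 are below the gene mean for most members, control 3 is not, and E2f2 has the widest range; the grey cell is the masked spot of Aurka in control 1.

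Markers of other heart cell types moved between the arrays too. Cardiomyocyte markers (11 of 12 tested, 10 of them above background on all 6 arrays) had centred medians of 0.11, 0.11 and -0.07 in the mutants, against -0.32, -0.12 and 0.41 in the controls, with 6 of the 11 lowest in control 1 and 6 highest in control 3. Erythroid markers (13 of 14 tested, 12 above background on all 6 arrays) ran the other way within the controls, at 0.03, -0.16 and -0.09 in the mutants, against 0.37, 0.22 and -0.17 in the controls. The brightest of these probes were saturated, 3 erythroid markers and 2 cardiomyocyte markers on all 6 arrays, so sums were taken over the markers never flagged saturated. The log2 of that sum over 10 erythroid markers ranged from 14.3 to 14.6 in mutants, against 14.9, 14.9 and 14.6 in controls 1, 2 and 3. Over 6 cardiomyocyte markers it ranged from 15.60 to 15.74 in mutants, against 15.55, 15.70 and 16.03 in the controls. Of the 11 cardiomyocyte markers tested, 6 had a difference above 0 and 5 below, and 1 had every mutant below every control (9.09%, against 5.50% of all genes). That was Myl3, named after its value was seen, at -0.78 ± 0.10 (SE, limma adjusted p = 0.0836). Tnnt2, like Myl3 part of the sum, gave 0.46 ± 0.19 with overlap.

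Vessel and epicardial markers were lower in mutants on most probes, though limma called none of them. The same held for erythroid markers, with 11 of 13 below 0. The median difference was -0.28 for erythroid, -0.13 for endocardial and endothelial and -0.17 for epicardial markers. No erythroid marker had every mutant below every control. Of 9 endocardial and endothelial markers tested (12 listed), all above background on all 6 arrays, 8 had a difference below 0, and 4 had every mutant below every control (44.4%, against 5.50% of all genes). Their centred medians were -0.19, -0.0047 and -0.03 in the mutants, against 0.05, 0.08 and 0.07 in the controls, so that the groups did not overlap. The log2 of their summed signal ranged from 12.8 to 13.0 in mutants, against 13.0 to 13.1 in controls. Of 8 epicardial markers, 7 of them above background on all 6 arrays, 6 were below 0 and 1 did not overlap, with centred medians of -0.06, -0.02 and -0.12 in the mutants, against 0.04, 0.17 and 0.0038 in the controls. Their summed log2 signal ranged from 12.7 to 12.9 in mutants, against 13.2 to 13.6 in controls. Cushion mesenchyme markers (10 of 11 tested, 9 above background on all 6 arrays) overlapped, at 0.0050, 0.12 and -0.32 in the mutants, against -0.04, 0.12 and 0.16 in the controls, with summed signals of 13.4 to 13.7 in mutants and 13.3 to 13.6 in controls. The part of any of these marker lists in the member values was not tested. In whole hearts, fewer cells of a type and less RNA per cell cannot be told apart. For the heart label itself, 10 of the 11 cardiomyocyte markers tested were above background on all 6 arrays. Among them were Myl7, Actc1 and Tnnt2, with Myl7 and Actc1 saturated there. The exception was the cardiac myosin gene Myh6, above background on 4 arrays, at a mean log2 level of 6.39.

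**Figure D4:**
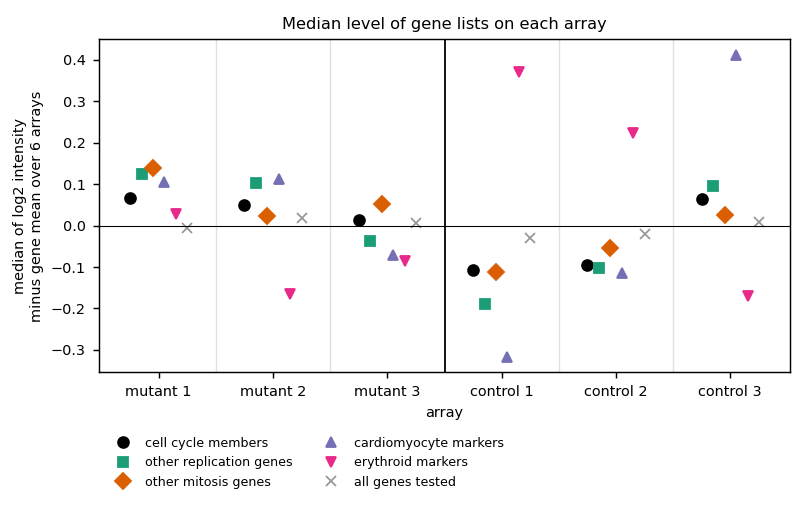
Median over the genes of a list of log2 intensity minus the gene's mean over 6 arrays, on each mutant (left) and control array (right). The cell cycle members lie at -0.11 and -0.09 in controls 1 and 2 and at 0.01 to 0.07 elsewhere; cardiomyocyte and erythroid markers spread more widely among the controls, in opposite directions.

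Dicer1 served as the check of the labels. Its log2 level was 6.74, 6.73 and 6.68 in mutants 1 to 3, against 7.82, 7.63 and 7.71 in controls 1 to 3, or 0.498 times the control level (limma adjusted p = 0.036). No source used here places its probe inside or outside the deleted exons. On each array 74.1% to 78.2% of 36227 spots were above background, and the number of arrays limits the precision.

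The members were also compared by the DNA around their transcription start, a feature that their choice did not use. RefSeq promoter windows of build GRCm38.p6, 250 bases before to 50 after each start, were at hand for 33 of the 40 genes (36 windows), of which 29 genes were tested. Ccne2, Gmnn, Mcm4, Ccna2, Cdc25c, Foxm1 and Aurkb are not among them. An E2F-type motif, of the kind that E2F factors bind, was any of 4 spellings. The first was TTCCCGC, another was TTCGCGC, a further spelling was TTGCCGC, and the last was TTGGCGC. Also searched, all on both strands, were the CCAAT box (CCAAT, bound by NF-Y) and the CHR (TTTGAA or TTCGAA, the element of late cell cycle genes). Matches of a motif may overlap. An E2F-type match was found in 52.8% of the members' windows (19 of 36), against 13.8% of the windows of all genes tested and 9.57% of all 32851 windows. For the CCAAT box these shares were 80.6%, 37.2% and 37.4%, and for the CHR 44.4%, 15.5% and 19.2%. A match is a description of letters, not of binding.

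The phase groups differed in which motif they held. Of 9 windows of licensing genes 8 had an E2F-type match and 2 a CHR, and of 8 windows of DNA synthesis genes 5 had an E2F-type match and 1 a CHR. Mitosis genes were the reverse, with an E2F-type match in 0 of 8 windows and a CHR in 6 of 8. Genes of G2 held both, with E2F-type matches in 3 of 6 windows and a CHR in 5 of 6. Windows are printed below from 5′ to 3′ on the gene's strand, with matches of any of the motifs in capitals. They were taken from a few members that the results turn on, not as a sample of each step. They cover 2 licensing genes, 1 DNA synthesis gene, 3 genes of G2 and 1 of mitosis, and no G1/S regulator. They come from Mcm3 (chr1:20820263-20820562, minus strand), Mcm6 (chr1:128359656-128359955, minus strand), Pola1 (chrX:93632106-93632405, minus strand), Cdk1 (chr10:69352863-69353162, minus strand), Top2a (chr11:99024140-99024439, minus strand), Ccnb2 (chr9:70421505-70421804, minus strand) and Bub1b (chr2:118597961-118598260, plus strand).
Mcm3: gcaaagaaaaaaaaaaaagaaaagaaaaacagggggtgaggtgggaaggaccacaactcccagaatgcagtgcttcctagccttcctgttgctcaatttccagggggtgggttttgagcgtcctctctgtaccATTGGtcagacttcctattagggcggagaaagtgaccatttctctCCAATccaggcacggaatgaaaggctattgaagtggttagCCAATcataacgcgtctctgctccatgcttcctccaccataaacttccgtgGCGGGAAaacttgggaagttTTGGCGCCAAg
Mcm6: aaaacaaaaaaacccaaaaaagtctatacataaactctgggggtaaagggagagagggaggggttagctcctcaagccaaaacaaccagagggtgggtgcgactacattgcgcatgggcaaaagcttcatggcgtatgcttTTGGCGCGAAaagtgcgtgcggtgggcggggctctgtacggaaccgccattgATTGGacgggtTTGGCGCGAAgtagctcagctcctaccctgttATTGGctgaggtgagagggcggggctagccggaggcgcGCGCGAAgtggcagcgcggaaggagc
Pola1: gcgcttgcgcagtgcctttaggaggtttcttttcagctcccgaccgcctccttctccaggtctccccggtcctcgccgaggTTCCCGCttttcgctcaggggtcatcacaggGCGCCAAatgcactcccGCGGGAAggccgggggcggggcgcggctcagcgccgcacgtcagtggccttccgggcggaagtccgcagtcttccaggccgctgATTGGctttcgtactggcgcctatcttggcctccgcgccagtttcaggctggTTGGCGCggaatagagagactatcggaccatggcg
Cdk1: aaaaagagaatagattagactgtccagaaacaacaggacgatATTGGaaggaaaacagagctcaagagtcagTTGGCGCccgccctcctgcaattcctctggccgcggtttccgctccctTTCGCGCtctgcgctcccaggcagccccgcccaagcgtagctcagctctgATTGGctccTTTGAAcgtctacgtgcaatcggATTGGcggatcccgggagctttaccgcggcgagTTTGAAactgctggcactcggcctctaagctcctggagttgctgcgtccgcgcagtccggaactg
Top2a: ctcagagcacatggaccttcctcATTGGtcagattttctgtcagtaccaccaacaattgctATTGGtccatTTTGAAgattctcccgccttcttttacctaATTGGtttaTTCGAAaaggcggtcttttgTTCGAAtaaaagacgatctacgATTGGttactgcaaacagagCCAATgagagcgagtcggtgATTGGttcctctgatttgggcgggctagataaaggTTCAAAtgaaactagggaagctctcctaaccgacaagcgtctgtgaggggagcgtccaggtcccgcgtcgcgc
Ccnb2: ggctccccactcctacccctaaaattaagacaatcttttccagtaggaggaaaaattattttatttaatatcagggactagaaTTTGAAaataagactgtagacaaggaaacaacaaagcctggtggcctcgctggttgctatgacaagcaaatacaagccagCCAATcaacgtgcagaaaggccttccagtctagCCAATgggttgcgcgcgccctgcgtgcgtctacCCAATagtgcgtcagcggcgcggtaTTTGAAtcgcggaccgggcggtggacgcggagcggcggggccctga
Bub1b: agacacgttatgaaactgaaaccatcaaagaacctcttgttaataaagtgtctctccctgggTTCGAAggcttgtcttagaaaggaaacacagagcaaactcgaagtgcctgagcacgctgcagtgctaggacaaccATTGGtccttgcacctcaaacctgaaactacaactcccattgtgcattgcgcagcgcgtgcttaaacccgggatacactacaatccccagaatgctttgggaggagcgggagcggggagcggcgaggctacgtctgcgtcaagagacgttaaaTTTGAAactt

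Positions are those of a match's first base relative to the start. In Mcm6 the letters TTGGCGC stood at -109 and -46 from the start, each overlapped by a match on the other strand. Pola1 had 4 E2F-type matches and no CHR. Cdk1 carried all 3 kinds, with E2F-type matches at -178 and -130 and CHR letters at -71 and -15. Top2a had 6 CCAAT boxes and 4 CHR matches. Ccnb2 had CCAAT boxes at -87, -54 and -21, with CHR matches on either side of them, at -167 and at 5. The differences between mutant and control by motif are given as a description. The 11 tested members with an E2F-type match and no CHR had a median difference of 0.09, with 10 above 0, and the 11 with a CHR and no E2F-type match had 0.10, with 6 above 0. A gene with more than 1 window was classed by all of them together. The 4 with both had -0.07, from -0.58 to 0.25, with 1 above 0. The -0.58 was that of E2f2, whose E2F-type match and CHR lay in different windows, so neither of its windows held both. The 3 with neither had 0.04, with 2 above 0.

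**Figure D5:**
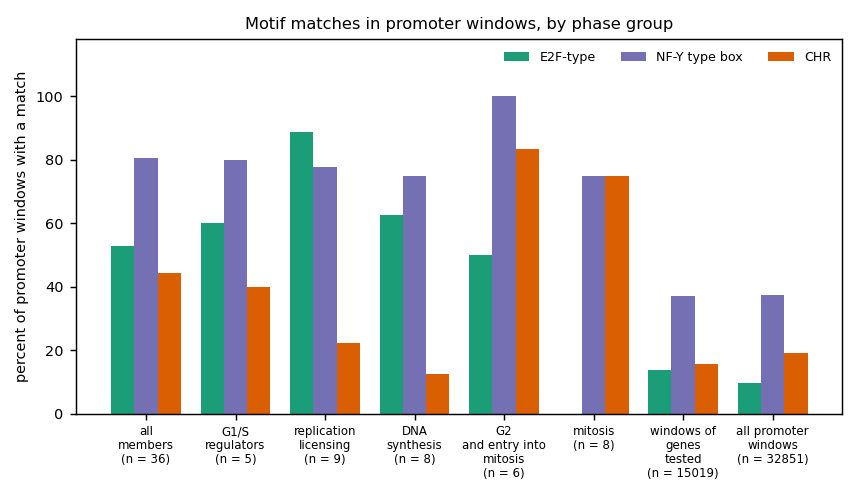
Percent of RefSeq promoter windows with at least 1 match to an E2F-type motif, a CCAAT (NF-Y type) box or a CHR, for all members, each phase group, the genes tested and all windows. E2F-type matches are at 88.9% in licensing genes and 0% in mitosis genes, and CHR matches at 22.2% and 75%.

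Among the 4 G1/S regulators the differences had both signs, and none passed. Ccne2, a cyclin that activates Cdk2 at the start of S phase, had log2 levels of 6.82, 6.75 and 6.58 in mutants 1 to 3, against 6.45, 6.38 and 6.58 in controls 1 to 3. Mutants 1 and 2 lay above every control, and mutant 3 lay just under control 3. Its difference was 0.24 ± 0.11 (SE, limma adjusted p = 0.516), and its dimmer probe gave 0.12. The kinase Cdk2 itself gave 7.12, 7.30 and 7.38 in the mutants, against 7.11, 7.07 and 7.49 in the controls, with the highest value in control 3. That is a difference of 0.04 ± 0.14.

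E2f2, an activating E2F factor that is also needed for the maturation of red cells, had the widest spread of all members. It measured 10.92, 10.26 and 10.01 in mutants 1 to 3, against 11.55, 11.27 and 10.09 in controls 1 to 3. Control 3 lay within the range of the mutants and controls 1 and 2 above it, so the groups overlapped. The difference was -0.58 ± 0.42 (adjusted p = 0.658), which is 0.671 times the control level with a 95% interval of 0.337 to 1.34. It was -0.29 without control 1 and -1.02 without control 3, so single controls set its size. Of the 13 erythroid markers tested, 8 had the same order among the controls, highest in control 1 and lowest in control 3, while 2 (Hba-a1 and Ermap) had the opposite order and 3 another. Among the 8, picked after their values were seen, Slc4a1, the red cell anion exchanger, gave 9.22, 8.52 and 8.44 in the mutants, against 10.54, 10.27 and 7.99 in the controls, and Gata1, the erythroid transcription factor, gave 7.81, 7.29 and 7.35 in the mutants, against 8.51, 8.33 and 7.66 in the controls. Highest in control 1 and lowest in control 3 was also the order of 0 of 11 cardiomyocyte, 1 of 9 endothelial, 2 of 8 epicardial and 2 of 10 cushion markers. Gadd45a and the E2F partner Tfdp2, given below, had that order too. Its share over all genes was not counted. The part of red cells in the E2f2 values was not tested. E2f3, the related activator, gave 9.04, 9.07 and 9.57 in the mutants, against 9.35, 9.43 and 9.23 in the controls, with the highest value in mutant 3 and a difference of -0.11 ± 0.16.

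All 9 licensing genes measured had a difference above 0 (52.4% of all genes did), from 0.05 for Mcm5 to 0.29 for Gmnn, with a median of 0.10. None passed. Their centred array medians were 0.07, 0.19 and -0.09 in mutants 1 to 3, against -0.15, -0.09 and 0.10 in controls 1 to 3, so the groups overlapped. Licensing loads the ring of Mcm2 to Mcm7, the replicative helicase, on origins that Orc1 marks, through Cdc6 and Cdt1, and geminin, the product of Gmnn, blocks Cdt1 once S phase has begun. The sign depended on single arrays for Mcm4, Mcm5 and Mcm6, whose differences were -0.05, -0.03 and -0.02 without control 1. Gmnn had levels of 11.09, 11.13 and 10.96 in mutants 1 to 3, against 10.63, 10.58 and 11.10 in controls 1 to 3. Control 3 lay among the mutants and the other controls lower. Its difference was 0.29 ± 0.16 (SE, limma adjusted p = 0.576). Cdt1, the loader that geminin binds, gave 11.34, 11.38 and 11.51 in the mutants, against 11.30, 11.26 and 11.30 in the controls. Its groups did not overlap, though mutant 1 and control 1 lay close, and the difference was 0.12 ± 0.09 (adjusted p = 0.659).

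The 5 measured subunits of the Mcm ring differed little between the groups, from 0.05 to 0.12, and their 95% intervals together spanned -0.39 to 0.52. Mcm2 measured 8.55, 8.80 and 8.46 in the mutants, against 8.54, 8.43 and 8.54 in the controls, and only mutant 2 stood apart, above the rest. Its difference was 0.10 ± 0.11 (adjusted p = 0.787), those of Mcm3, Mcm4 and Mcm6 0.12, 0.07 and 0.05. The origin subunit Orc1 and the loader Cdc6 gave 0.09 and 0.10. A second probe of Cdc6 was below background on all 6 arrays.

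DNA synthesis genes had a median difference of 0.06 over 6 members, 4 of them above 0, and none passed. Pola1, the catalytic subunit of DNA polymerase alpha, gave 6.61, 6.52 and 6.64 in mutants 1 to 3, against 6.28, 6.36 and 6.5 in controls 1 to 3. The groups did not overlap, but mutant 2 and control 3 lay close. Its difference was 0.21 ± 0.10 (SE, limma adjusted p = 0.534), and 0.49 with no offset added to the intensities, so the value of this dim probe depends on the offset. Its promoter, printed above, held E2F-type matches and no CHR. Chek1, the kinase that halts the cycle when replication stalls, gave 8.70, 8.68 and 8.55 in the mutants, against 8.27, 8.26 and 8.67 in the controls, where control 3 again lay with the mutants. That difference was 0.24 ± 0.14 (adjusted p = 0.583).

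Pcna, the sliding clamp of DNA polymerases, measured 12.67, 12.68 and 12.64 in the mutants, against 12.46, 12.51 and 12.69 in the controls. Control 3 was the highest array, and the difference was 0.11 ± 0.10 with a 95% interval of -0.12 to 0.34. Rrm2, the small subunit of ribonucleotide reductase, which makes deoxynucleotides, gave 10.27, 9.97 and 9.90 in the mutants, against 10.12, 10.07 and 10.58 in the controls. Its difference was -0.21 ± 0.17 and was -0.05 without control 3, the highest array. The helicase cofactor Cdc45 gave 8.52, 8.93 and 8.83 in the mutants, against 8.73, 8.61 and 8.95 in the controls, a difference of -0.00081 with an interval of -0.35 to 0.35. For the primase subunit Prim1 it was 0.01.

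In G2 and entry into mitosis, 4 of 8 members had a difference above 0 and 4 below, and the 3 members with an unadjusted p under 0.05 all belong here. Ccna2, the A-type cyclin of S phase and G2, measured 11.57, 11.44 and 11.57 in mutants 1 to 3, against 11.23, 11.18 and 11.33 in controls 1 to 3. Every mutant lay above every control, mutant 2 and control 3 being the nearest. The difference of 0.28 ± 0.09 (SE, limma adjusted p = 0.38) is 1.21 times the control level, with a 95% interval of 1.04 to 1.42. Across the 19 other settings it stayed between 0.25 and 0.33.

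Cdk1, the kinase that drives cells into mitosis with cyclins A and B, gave 12.77, 12.66 and 12.77 in the mutants, against 12.40, 12.41 and 12.63 in the controls. Its groups did not overlap, with control 3 just below mutant 2, and the difference was 0.25 ± 0.10 (SE, limma adjusted p = 0.488). Top2a, the topoisomerase that untangles sister chromatids, had the largest positive difference of the members. Its levels were 10.62, 10.42 and 10.86 in the mutants, against 10.14, 10.01 and 10.44 in the controls. Control 3 lay just above mutant 2, so the groups overlapped. The difference was 0.44 ± 0.16 (adjusted p = 0.43), or 1.35 times the control level, and a second probe of Top2a was below background on all 6 arrays. The cyclin Ccnb2 gave 0.18. All 3 of these genes held CCAAT boxes and a CHR in the promoters printed above, and Cdk1 alone of them E2F-type matches.

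Mki67, the gene of the proliferation marker Ki-67, showed no shift that these arrays could resolve. It measured 13.30, 12.62 and 12.90 in mutants 1 to 3, against 13.17, 13.00 and 12.73 in controls 1 to 3, and mutants held both the highest and the lowest value. The difference was -0.03 ± 0.20 (SE, limma adjusted p = 0.967), with a 95% interval of -0.51 to 0.45. Of the phosphatases that activate Cdk1, Cdc25b gave 8.27, 7.96 and 8.19 in the mutants, against 8.74, 8.54 and 8.15 in the controls. Controls 1 and 2 were the highest arrays and control 3 lay within the mutants, the order seen in E2f2. Its difference was -0.34 ± 0.17 (adjusted p = 0.561). Cdc25c gave 7.02, 7.15 and 7.20 in the mutants, against 7.20, 7.27 and 7.47 in the controls, overlapping at control 1, with a difference of -0.19 ± 0.11. Foxm1, the transcription factor of the late wave, gave -0.11.

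The 9 genes of mitosis had a median difference of 0.04, with 5 above 0 and 4 below, and none passed. Cdc20, which activates the ubiquitin ligase that starts anaphase, measured 9.84, 10.17 and 9.79 in mutants 1 to 3, against 9.56, 9.46 and 9.93 in controls 1 to 3. Mutant 2 was highest and control 3 lay above mutants 1 and 3. Its difference was 0.29 ± 0.17 (SE, limma adjusted p = 0.586). Aurkb, the kinase of the chromosomal passenger complex, gave 8.0, 8.13 and 7.76 in the mutants, against 7.73, 7.70 and 7.85 in the controls. Control 3 lay above mutant 3, and the difference was 0.21 ± 0.12 (adjusted p = 0.591).

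Bub1b, a spindle checkpoint kinase gene that keeps cells from dividing before all chromosomes are attached, was the 1 member with every mutant below every control. It gave 7.0, 7.07 and 7.31 in the mutants, against 7.36, 7.34 and 7.41 in the controls, mutant 3 and control 2 being the nearest. The difference was -0.25 ± 0.11 (adjusted p = 0.52), or 0.843 times the control level. Its promoter, printed above, held CHR letters and no E2F-type match. The spindle motor gene Kif11 gave 8.72, 8.66 and 8.98 in the mutants, against 8.82, 8.96 and 8.85 in the controls, with the lowest values in mutants 1 and 2 and the highest in mutant 3. That difference was -0.09 ± 0.11, and its dimmer probe gave 0.18, of the other sign. The checkpoint genes Bub1 and Mad2l1 gave -0.06 and -0.02, Birc5, which encodes survivin, gave 0.04, and the polo kinase Plk1 0.17. The dimmer probe of Bub1 gave 0.11.

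Aurka, the centrosomal Aurora kinase, was read differently by its probes. The brighter had a masked spot in control 1, which the fit left out, and gave 8.66, 8.86 and 8.73 in mutants 1 to 3, against 8.51 and 8.80 in controls 2 and 3. Its difference was 0.10 ± 0.14 (SE, limma adjusted p = 0.832). The dimmer probe, measured on all 6 arrays, gave 7.86, 7.74 and 7.74 in the mutants, against 7.34, 7.38 and 7.46 in the controls, without overlap. That difference was 0.39 ± 0.09 (adjusted p = 0.221), and it did not pass either. The dimmer probe is named here after its value was seen.

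Other genes of the same pathway were read from 4 lists, and limma called none of their genes. Of 35 other replication genes, 29 lay above 0 (52.4% of all genes did) with a median of 0.14. The centred array medians of these 35 were 0.12, 0.10 and -0.04 in mutants 1 to 3, against -0.19, -0.10 and 0.10 in controls 1 to 3, so the groups overlapped. An unadjusted p under 0.05 was given by limma for 3 of them, all higher. That is 8.57%, against 10.2% of all genes in either direction and 6.71% higher. The origin subunits Orc6 and Orc2 gave 0.38 ± 0.12 and 0.45 ± 0.17, and on the lower side the ligase Lig1 gave -0.15 ± 0.13 and the dUTPase Dut -0.14 ± 0.22 (log2 difference ± SE). Of 36 other mitosis genes, 26 lay above 0 with a median of 0.07, and 5 had an unadjusted p under 0.05, all higher. That is 13.9%, against 10.2% of all genes in either direction and 6.71% higher. Nek2, a centrosomal kinase, measured 8.91, 8.76 and 8.66 in mutants 1 to 3, against 7.84, 7.93 and 8.25 in controls 1 to 3, without overlap. Its difference of 0.77 ± 0.14 did not pass (limma adjusted p = 0.149), but did without control 3, at 0.89 (adjusted p = 0.0448). Hmmr, a spindle protein gene, gave 0.29 ± 0.09, the kinesin Kif2c -0.17 ± 0.14 and Ect2, needed to divide the cell body, -0.12 ± 0.10.

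The 16 G1 cyclins, kinases and E2F partners had a median of 0.01, with 10 above 0. Cdc25a, the phosphatase that activates Cdk2, gave 8.93, 8.82 and 9.37 in the mutants, against 8.52, 8.50 and 8.32 in the controls, without overlap, a difference of 0.59 ± 0.16 (SE, limma adjusted p = 0.282). E2f7, a repressing E2F factor, gave 0.35 ± 0.17, the cyclin Ccnd2 -0.33 ± 0.19 and the E2F partner Tfdp2 -0.74 ± 0.46. The 19 cell cycle inhibitors had a median of 0.04, with 10 above 0. Cdkn1a, the kinase inhibitor p21, gave 9.75, 10.15 and 10.10 in the mutants, against 8.94, 8.67 and 7.91 in the controls. The mutants all lay above the controls, but the difference of 1.49 ± 0.27 did not pass (adjusted p = 0.151). Without control 3, the lowest array, it was 1.19 and did (adjusted p = 0.0448), as did 1.94% of all genes. Wee1, the kinase that restrains Cdk1, gave 0.43 ± 0.17 and the inhibitor Cdkn2d -0.19 ± 0.10. Gadd45a, a stress-induced growth arrest gene, measured 9.36, 8.82 and 8.90 in the mutants, against 10.58, 10.23 and 8.82 in the controls, with controls 1 and 2 high and control 3 low. Its difference of -0.85 ± 0.45 did not pass (adjusted p = 0.568), but did without control 3, at -1.38 (adjusted p = 0.0463). Neither Cdkn1a nor Gadd45a passed in any other fit that left out 1 array.

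How far the members' result rests on single arrays was read by leaving each out. Without control 3 the median difference was 0.13, and 10 members had an unadjusted p under 0.05, 8 higher and 2 lower. That is 27.8% of the members, against 21.8% of all genes (10.9% higher and 10.9% lower). The adjusted p of Gmnn was then 0.0825, the smallest of a member, so none passed, while 1.94% of all genes did (0.713% higher and 1.23% lower). Without mutant 1, control 1 or control 2 no member had an unadjusted p under 0.05 by limma, against 8.23%, 7.52% and 4.88% of all genes. There were 2 such members without mutant 2 (5.56%, against 6.91% of all genes) and 5 without mutant 3 (13.9%, against 15.5%). None passed the adjusted threshold in these fits, against 0.00666% of all genes without mutant 3 and none in the others. Mutants 1 and 2 and control 1 share the start of their array titles, whose meaning the labels do not give. Compared within those 3 arrays, the members' median was 0.15 over 35 members, and 7 had an unadjusted p under 0.05 (20%), against 29.0% of all genes, 15.9% higher and 13.1% lower. None passed, against 7.91% of all genes, among them Nek2 at 0.99, Orc2 at 0.70, the flap nuclease gene Fen1 at 0.67, Gadd45a at -1.49 and its relative Gadd45g at -1.42. That fit takes control 1 to vary like the mutants.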

How the data were processed

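RNA of 3 Dicer mutant and 3 control hearts was labelled with biotin and read on single-colour CodeLink arrays, per the labels' protocols. The deposited files give each spot's mean intensity, its background intensity and a normalized intensity, which per the file headers are the authors' scanner output. Within an array the deposited background-subtracted intensity is a constant multiple of the normalized one, so that normalization set only the scale of each array. The sources used here do not give the scanner software.

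The sample descriptions gave each array's group. In R 4.3.3 with limma 3.58.1, spot mean and background median intensities were corrected with normexp (offset 50), log2 transformed, then quantile normalized over the 21880 spots that the platform annotation lists. Of these, 21676 spots name 1 gene and 204 several, which name none here, and 14347 further spots are unlisted. A probe was kept if 3 or more of the 6 arrays, of whichever group, read it above background (17727 probes), and fitted with lmFit and eBayes, with Benjamini-Hochberg adjustment over all of them. The brightest probe stood for a gene. A difference is mutant minus control on the log2 scale, given ± its SE from limma, and array numbers follow accession order. With 3 arrays a group, the number of arrays limits the precision.

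The members and lists were chosen with earlier results of these data known. All members are named; values on every array are given for 8 proliferation genes chosen by name (Ccnb1 among them, which had no probe) and for the 2 members with the smallest unadjusted p in each direction of each phase, and the lists by the same count. Sequences are RefSeq's, of build GRCm38.p6. The fit was tested on simulated data. Alternatives covered background correction, offset, scaling, the authors' normalized intensity, the series' value table, the filter, the mean over probes, array titles as blocks and each array left out. Normalizing over all spots and leaving out irregular or contaminated spots were added after the data were seen.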

Additional observations from a re-analysis of the deposited data

How the results depend on the processing

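No member was called by limma in any of the 19 other settings, and the count at an unadjusted p under 0.05 ran from 0 to 10. The members' median difference stayed above 0 in all 19, between 0.02 and 0.15, and 25 of the 36 members kept their sign throughout. The 0.15 came with the shared title start as a block, which leaves 2 mutants and 1 control to compare. Over the whole array there were 9 probes called (5 higher, 4 lower). It was 5 with the deposited background-subtracted intensity, 4 with a normexp offset of 0, 4 with the authors' normalized intensity, 5 with the series' value table, 5 with the mean over the probes of a gene and 1339 (535 higher, 804 lower) with the title start as a block. Leaving out 1 array gave 0 to 320 probes called, with 320 without control 3, 1 without mutant 3 and 0 without each other array. Each of the 3 title numbers is shared by 1 mutant and 1 control, and the labels do not give their meaning. The deviations of same-numbered arrays from their group means correlated at 0.01, -0.48 and -0.38. With 3 arrays a group these deviations sum to 0 and are tied to each other. They cannot settle whether the numbers pair the samples. Only mutant 1 correlated best with the control of its own number, at 0.01 against 0.0062 with control 3. No control correlated best with the mutant of its own number. With the title number as a replicate block 0 probes were called, and the members' median was 0.08. Dim probes such as those of Pola1 and Ccne2 depend on the background correction, and few arrays limit every call.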
